A study of Mus musculus with 22 samples.

Results

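Collagens, laminins and integrins, the structural chains of the extracellular matrix and the receptors that hold cells to it, were followed across 4 mouse embryonic stem cell lines grown with different kinase inhibitors. A probe belonged to the set when its gene symbol began with Col and a digit, or with Lama, Lamb, Lamc, Itga or Itgb, names of binding proteins and Itgbl1 left out. No expression value decided membership, but a probe was kept only if it was detected (detection p below 0.01 against the negative control beads of its array) on at least 2 arrays of its platform. On the array used for lines B20 and B18, 110 of 25697 probes matched, for 69 genes, and 36 probes for 25 genes were kept (10 collagens, 6 laminins and 9 integrins). On the array used for C17 and B4, 171 of 45281 probes matched, for 79 genes, and 28 probes for 21 genes were kept (8 collagens, 5 laminins and 8 integrins). In all 29 genes were kept, 17 of them on both platforms. Leaving out every name that holds the letters l1, Col17a1 and Col18a1 included, would keep 23 and 20 genes. The genes that were not kept include the fibrillar collagen genes Col1a1, Col1a2 and Col3a1, with no detected array on either platform. Just inside the limit, the kept Col25a1 probe was detected on 2 of the 16 B20 and B18 arrays with a mean log2 level of 4.85. Just outside it, Col11a2 and Itgb3 were detected on 1 array each with mean log2 levels of 4.85 and 4.83.

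R2i medium holds PD0325901 (PD), an inhibitor of the kinase MEK, and SB431542 (SB), which blocks the receptor kinases that answer TGF-beta, Activin and Nodal. 2i medium holds PD and CHIR99021, an inhibitor of the kinase GSK3, and the remaining media hold PD alone or SB alone; all were N2B27 with LIF, a cytokine that maintains mouse embryonic stem cells. B20 and B18, both C57BL/6, were derived in R2i and kept there for more than 10 passages before 10 passages in the other media, so that leaving R2i and the new medium cannot be told apart. Each of these lines gave 3 arrays in R2i, 2 in 2i and 3 in PD. C17 (BALB/c) and B4 (C57BL/6) gave 1 array each in R2i, PD and SB. The PD and SB samples titled C17 carry that strain but B4 as their cell line label, and the titles were used. How C17 and B4 were derived is not stated separately.

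Type IV collagen, laminins, nidogen and the proteoglycan perlecan build the basement membrane, the thin sheet on which epithelia and the early epiblast sit. A laminin is a trimer of an alpha, a beta and a gamma chain, and type IV collagen is a trimer of alpha chains that assembles inside the cell before secretion. Integrins are pairs of an alpha and a beta chain that bind these proteins outside the cell and the actin cytoskeleton inside it. In the mouse embryo parietal endoderm is a rich source of type IV collagen and laminin, and embryonic stem cells attach to laminin mainly through integrins that contain the beta 1 chain.

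Col4a1 and Col4a2, the genes of the most widespread type IV collagen chains, stand head to head and are read in opposite directions. Their RefSeq promoter windows (the bases just before and after the annotated start, assembly GRCm38.p6) are shown because these genes had the largest changes between media of all members. The Col4a1 window lies at chr8:11312777-11313076 on the minus strand and the Col4a2 window at chr8:11312555-11312854 on the plus strand. Capitals mark the 78 bases, 11312777 to 11312854, that both windows hold, each on its own strand, 5′ to 3′.
Col4a1: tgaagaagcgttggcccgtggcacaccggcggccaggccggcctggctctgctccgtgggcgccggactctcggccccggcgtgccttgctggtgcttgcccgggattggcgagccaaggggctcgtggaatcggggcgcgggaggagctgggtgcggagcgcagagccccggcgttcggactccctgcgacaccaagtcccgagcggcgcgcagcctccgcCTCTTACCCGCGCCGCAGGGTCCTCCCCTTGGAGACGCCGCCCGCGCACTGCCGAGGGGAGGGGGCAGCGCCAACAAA
Col4a2: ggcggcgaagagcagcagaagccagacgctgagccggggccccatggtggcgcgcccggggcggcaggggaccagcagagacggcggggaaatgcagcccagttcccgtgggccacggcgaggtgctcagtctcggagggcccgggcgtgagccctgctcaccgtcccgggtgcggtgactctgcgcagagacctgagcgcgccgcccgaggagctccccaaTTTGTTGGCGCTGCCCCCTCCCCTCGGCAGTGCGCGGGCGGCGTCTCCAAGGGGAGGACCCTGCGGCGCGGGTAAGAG
The windows are 74.0% and 73.7% G or C, against a median of 52.7% over the 32851 windows of the table. A GC box (GGGCGG, both strands) was found at 1 place in the Col4a1 window and 3 in the Col4a2 window, 1 of them in the shared stretch, and 35.7% of all windows hold one. CCAAT occurred once in each window, in neither case wholly inside the shared stretch (37.4% of all windows hold it). CAGAC, a short element bound by SMAD proteins, occurred once in the Col4a2 window and not in the Col4a1 window (49.6% of all windows hold it). The TCF/LEF core CTTTGA (16% of all windows), the GATA core TGATAA (9.05%) and the SOX core ATTGT (31.0%) were not in either window. A match is a run of letters and not a measured site. Of the 29 kept genes, 20 had a window in the table, and only these 2 are shown.

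Levels are log2 bead intensities after background correction and quantile normalisation within a platform. They compare arrays for 1 probe and not probes with each other, and a change on this scale understates the fold of dim probes. Per array 10822 to 11670 probes (42.1% to 45.4%) were detected for B20 and B18, and 13591 to 14366 (30.0% to 31.7%) for C17 and B4. Raw signal at the upper quartile exceeded the mean negative control by a factor of 1.99 to 2.41 in B20 and B18, and of 1.32 to 1.38 in C17 and B4. All 10 pluripotency markers listed, among them Pou5f1, Sox2 and Nanog, were kept on both platforms. Replicate arrays of B20 and B18 correlated across genes at 0.990 to 0.996. The B20 PD replicate 3 array had the lowest mean correlation with its own group (0.991), and it read lowest of the 3 B20 PD arrays for 13 of the 25 members. Replicate 1 read lowest for 10 of the 25 and replicate 2 for 2. B20 and B18 were each on a chip of their own, so line and chip cannot be told apart.

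Between media, type IV collagen moved most, and it did so in all 3 comparisons of B20 and B18. Levels were lowest in 2i, intermediate in R2i and highest in PD. Against PD, the laminin chains that were called were lower, and the called integrin subunits were 1 higher and 1 lower in each comparison. Of 25 members, 3 were called higher and 8 lower in R2i than in PD, where a call is an adjusted p under 0.05 in limma over all 9207 genes. Over all genes 9.24% were called higher and 9.57% lower, so the share of members called lower exceeded the background and the share called higher was near it. In R2i against 2i, 5 members were called higher and 3 lower, with 14.2% and 13.4% of all genes. In 2i against PD, 2 were called higher and 7 lower, with 11.4% and 12.2% of all genes. The median log2 change of the members was -0.10 in R2i against PD (0.01 over all genes), 0.06 in R2i against 2i (0.01) and -0.13 in 2i against PD (-0.01). The 3 comparisons share their arrays and are not independent of each other. Scaling arrays to a common median in place of the quantiles moved the splits, to 2 higher and 10 lower in R2i against PD and to 5 higher and 1 lower in R2i against 2i.

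**Figure D1:**
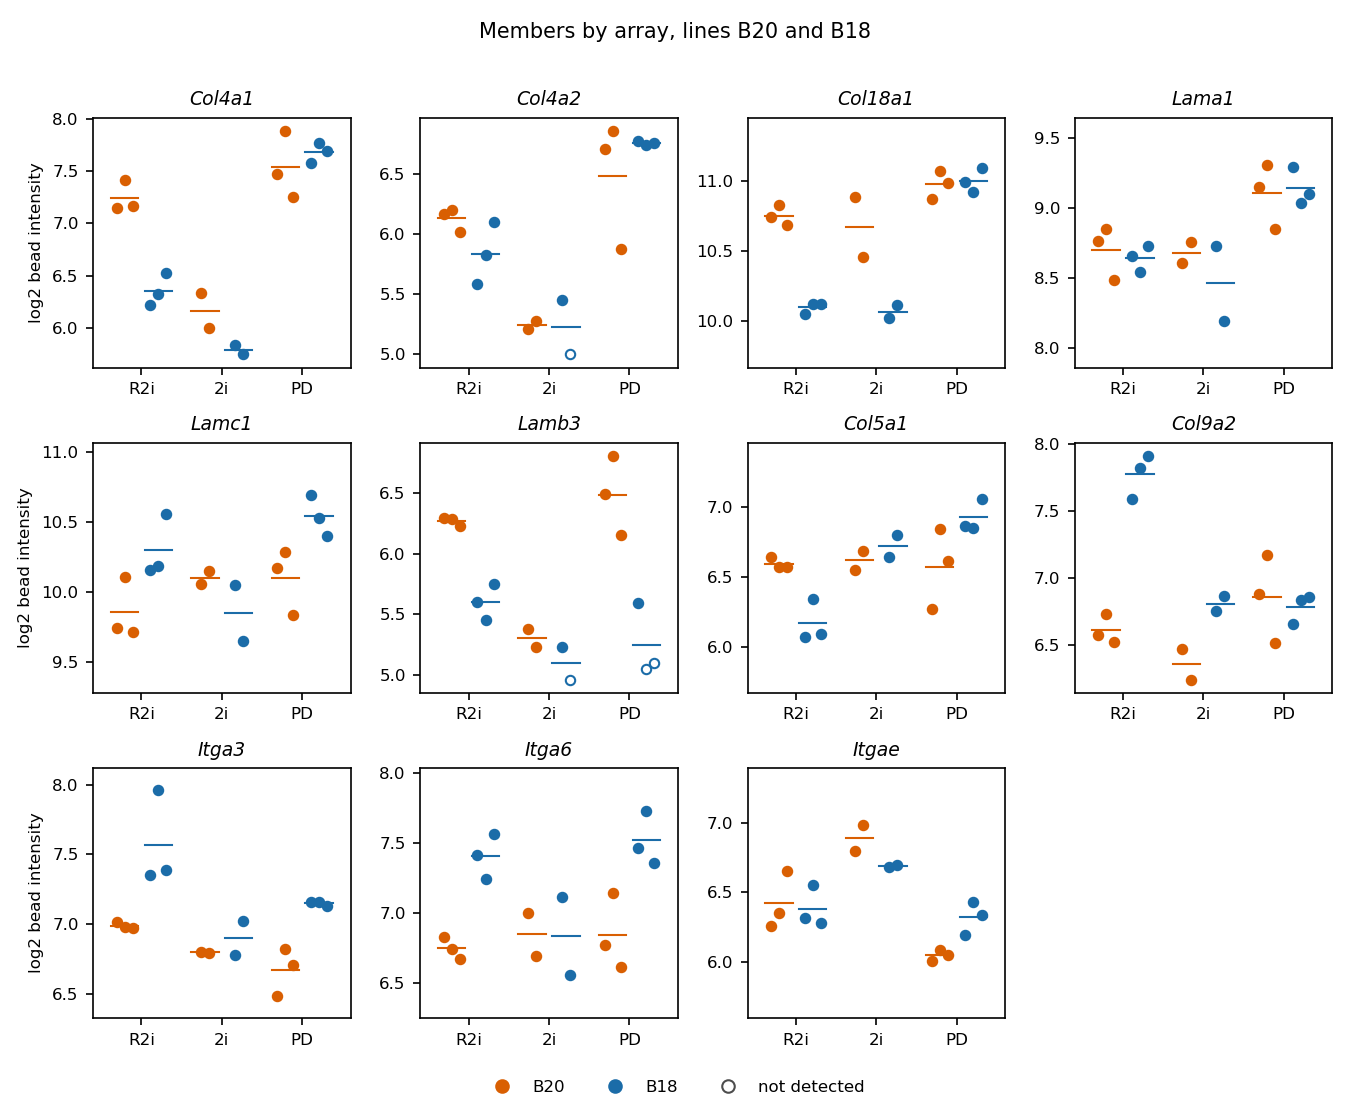
Log2 bead intensity (vertical axes, each with its own range) of 11 members in every array of B20 and B18 by medium; short lines are means of the 2 or 3 arrays and open circles are arrays on which the probe was not detected. Col4a1 and Col4a2 are lowest in 2i and highest in PD, Lama1 is highest in PD, and Col9a2 is high in the 3 B18 R2i arrays.

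Col4a1, the alpha 1 chain of type IV collagen, read 7.15, 7.41 and 7.17 in B20 and 6.22, 6.33 and 6.52 in B18 in R2i. In 2i it read 6.33 and 6.01 in B20 and 5.84 and 5.75 in B18. In PD it read 7.47, 7.88 and 7.26 in B20 and 7.58, 7.77 and 7.69 in B18. All 2i arrays lay below all PD arrays, whereas R2i arrays of B20 reached into the PD range and those of B18 did not. The fitted difference was -1.62 ± 0.11 (SE) in 2i against PD, a level 3.08-fold lower, with adjusted p = 2.93e-08. In R2i it was 1.75-fold lower than in PD (-0.80 ± 0.10, adjusted p = 2.01e-05) and 1.77-fold higher than in 2i (0.82 ± 0.11, adjusted p = 3.36e-05).

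Col4a2, the chain that pairs with it, read 6.17, 6.20 and 6.02 in B20 and 5.58, 5.83 and 6.10 in B18 in R2i. In 2i it read 5.21 and 5.27 in B20 and 5.45 and 5.0 in B18, the last of these not detected. In PD it read 6.71, 6.85 and 5.87 in B20 and 6.77, 6.74 and 6.76 in B18. Each R2i array was above each 2i array, and B20 PD replicate 3, at 5.87, was the PD array that reached into the R2i range. Col4a2 was 2.61-fold lower in 2i than in PD (-1.39 ± 0.15, adjusted p = 6.6e-06) and 1.55-fold lower in R2i than in PD (-0.64 ± 0.14, adjusted p = 0.00369). It was 1.68-fold higher in R2i than in 2i (0.75 ± 0.15, adjusted p = 0.00163). Without B20 PD replicate 3 the changes against PD were -1.54 in 2i and -0.79 in R2i for Col4a2, and -1.69 and -0.87 for Col4a1. B20 taken alone gave -0.35 (adjusted p = 0.296) for Col4a2 and -0.29 (adjusted p = 0.221) for Col4a1 in R2i against PD, so both calls rest on B18. In 2i against PD both genes were called in either line alone, while the Col4a2 call in R2i against 2i ended in B18 alone (0.61, adjusted p = 0.0627).

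Col18a1, the basement membrane collagen from which endostatin is cleaved, read 10.75, 10.83 and 10.68 in B20 and 10.05, 10.12 and 10.12 in B18 in R2i. It read 10.88 and 10.46 in B20 and 10.02 and 10.11 in B18 in 2i. In PD it read 10.87 to 11.07 in B20 and 10.92 to 11.10 in B18. Every R2i array was below every PD array, and the lines overlapped in PD but not in R2i. Col18a1 was lower in R2i than in PD by a log2 difference of -0.57 ± 0.07 (adjusted p = 3.12e-05) and in 2i than in PD by -0.62 ± 0.08 (adjusted p = 3.36e-05). R2i against 2i gave 0.06 ± 0.08 (adjusted p = 0.651). In B20 alone the calls ended, at -0.23 (adjusted p = 0.194) in R2i and -0.31 (adjusted p = 0.0897) in 2i against PD.

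Among the other collagens, Col9a2, a chain of the cartilage collagen type IX, read 7.59, 7.83 and 7.91 in the R2i arrays of B18. Its other arrays lay lower, at 6.53 to 6.74 in B20 R2i, 6.24 to 6.87 in 2i and 6.51 to 7.18 in PD. The fit gave 0.37 ± 0.10 in R2i against PD (adjusted p = 0.0129) and 0.61 ± 0.11 in R2i against 2i (adjusted p = 0.000506). In B20 alone R2i against PD was -0.24 (adjusted p = 0.305), the opposite sign, and R2i against 2i was 0.25 (adjusted p = 0.301). Col5a1, which encodes a minor chain of fibrils, read 6.07, 6.34 and 6.09 in B18 in R2i, under its 6.85 to 7.06 in B18 PD. In B20 it read 6.57 to 6.64 in R2i and 6.27 to 6.84 in PD, which overlap. It was called lower in R2i than in PD (-0.37 ± 0.09, adjusted p = 0.00699) and than in 2i (-0.29 ± 0.10, adjusted p = 0.0368), and B20 alone gave 0.02 (adjusted p = 0.941) against PD. Col17a1, the transmembrane collagen of hemidesmosomes, was higher than in PD both in R2i (0.33 ± 0.08, adjusted p = 0.00511) and in 2i (0.40 ± 0.08, adjusted p = 0.00237). The dimmest Col17a1 probe gave 0.15 and 0.03 for the same changes and was not called. Col2a1, Col7a1, Col9a1 and Col25a1 were detected on some arrays of B20 and B18 only, and none of them was called in a comparison of media.

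**Figure D2:**
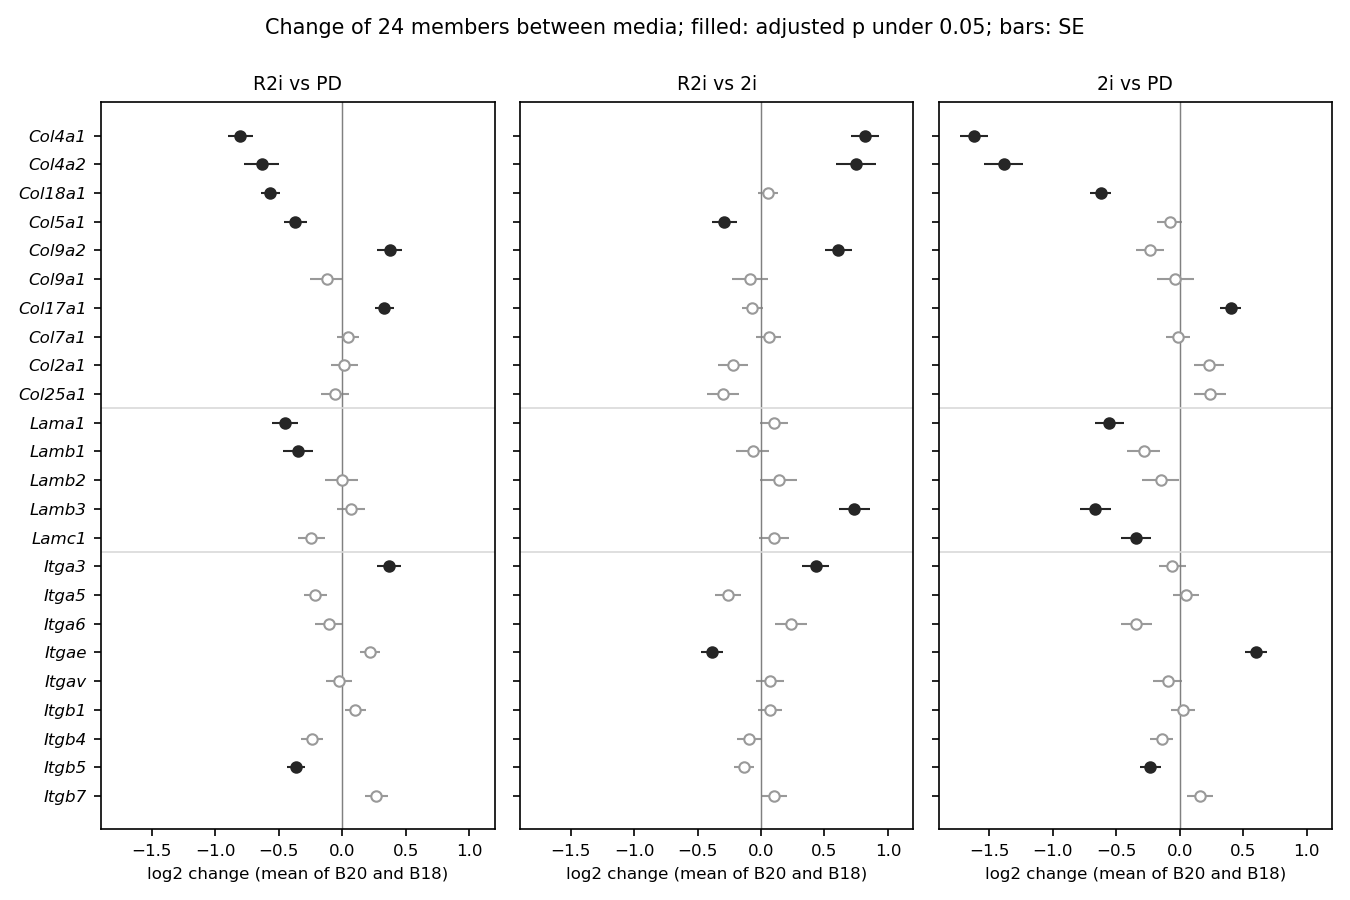
Log2 change (horizontal axes, mean of B20 and B18) of 24 members, grouped from top to bottom into collagens, laminins and integrins, in R2i against PD, R2i against 2i and 2i against PD. Bars are SE and filled points have an adjusted p under 0.05; Col4a1 reaches -1.62 in 2i against PD and the integrins stay between -0.39 and 0.60 in all 3.

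The laminin chains gave 3 lower and 0 higher calls of 6 in R2i against PD, and the same counts in 2i against PD. Over all genes 9.57% and 12.2% were called lower in these comparisons, and 9.24% and 11.4% higher. Lama1, the alpha chain of the laminin of the early embryo, read 8.76, 8.85 and 8.49 in B20 and 8.65, 8.54 and 8.73 in B18 in R2i. It read 8.61 and 8.75 in B20 and 8.73 and 8.19 in B18 in 2i, and 9.15, 9.31 and 8.85 in B20 and 9.29, 9.04 and 9.10 in B18 in PD. No R2i or 2i array passed the highest value of 8.85 in B20 R2i, which lay just under the lowest PD array. Lama1 was lower than in PD in R2i (-0.45 ± 0.10, adjusted p = 0.00462) and in 2i (-0.55 ± 0.11, adjusted p = 0.00189), while R2i against 2i gave 0.10 ± 0.11 (adjusted p = 0.544). B20 alone kept the sign without a call, at -0.40 (adjusted p = 0.089) and -0.42 (adjusted p = 0.0908).

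Lamc1, the gamma chain that most laminins share, read 9.74, 10.11 and 9.71 in B20 and 10.16, 10.19 and 10.55 in B18 in R2i. It read 10.06 and 10.15 in B20 and 10.05 and 9.65 in B18 in 2i, and 10.17, 10.28 and 9.84 in B20 and 10.70, 10.53 and 10.40 in B18 in PD. In B20 the media overlapped, while in B18 both 2i arrays lay under the R2i and the PD arrays. The change was -0.35 ± 0.12 in 2i against PD (adjusted p = 0.0425) and -0.24 ± 0.11 in R2i against PD (adjusted p = 0.125). In 2i against PD B20 alone gave 0.00 (adjusted p = 0.989), and the call also ended on leaving out any 1 of the 2i arrays other than B18 2i replicate 1, with adjusted p of 0.0679 to 0.207. Leaving out B18 PD replicate 1 or 2, or B20 PD replicate 1 or 2, ended it as well, at adjusted p of 0.0665 to 0.0928.

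Lamb3, a beta chain of the epithelial laminin found under hemidesmosomes, was called lower in 2i than in R2i and than in PD. Lamb3 read 6.29, 6.28 and 6.22 in B20 and 5.60, 5.45 and 5.75 in B18 in R2i, against 5.38 and 5.23 in B20 and 5.23 and 4.96 in B18 in 2i. In PD it read 6.49, 6.80 and 6.15 in B20 and 5.59, 5.05 and 5.10 in B18, and the value of 4.96 in 2i and the last 2 PD values in B18 were not detected. Every R2i array was above every 2i array, and in B20 the 2i arrays were also below the PD arrays. Lamb3 was higher in R2i than in 2i (0.73 ± 0.12, adjusted p = 0.000286) and lower in 2i than in PD (-0.67 ± 0.12, adjusted p = 0.0009), while R2i against PD gave 0.07 ± 0.11 (adjusted p = 0.725). Both calls ended in B18 alone, at 0.50 (adjusted p = 0.0552) in R2i against 2i and -0.15 (adjusted p = 0.617) in 2i against PD. Lamb1, detected on 7 of 16 arrays, was called lower in R2i than in PD (-0.35 ± 0.12, adjusted p = 0.047), and Lamb2 was not called in any comparison of media.

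The integrin subunits gave 1 higher and 1 lower call of 9 in each of the 3 comparisons. These shares were near those over all genes, which were 9.24% to 14.2% per direction. Itgb1, the beta 1 chain and common partner of the alpha chains that bind laminin and collagen, read 5.96 to 6.14 in B20 and 5.81 to 6.33 in B18 in R2i. It read 5.89 to 6.17 in 2i and 5.73 to 6.23 in PD over both lines. The media overlapped throughout, and the differences were 0.10 ± 0.08 in R2i against PD, 0.07 ± 0.09 in R2i against 2i and 0.03 ± 0.09 in 2i against PD, none called. A dimmer Itgb1 probe, detected on 15 arrays, gave -0.19, -0.29 and 0.10 in the same order, also none called. Itga6, the alpha chain of the main laminin receptors, read 6.83, 6.74 and 6.67 in B20 and 7.41, 7.24 and 7.56 in B18 in R2i. It read 7.0 and 6.69 in B20 and 7.11 and 6.55 in B18 in 2i, and 6.77, 7.14 and 6.61 in B20 and 7.47, 7.73 and 7.36 in B18 in PD. Its B20 arrays lay below its B18 arrays in R2i and in PD, while in 2i the lines overlapped. The difference in 2i against PD was -0.34 ± 0.12 with adjusted p = 0.0556. That value passed under several alternatives, among them leaving out B20 PD replicate 3 (-0.40, adjusted p = 0.028). B18 alone gave calls in limma, at -0.69 in 2i against PD (adjusted p = 0.0133) and 0.57 in R2i against 2i (adjusted p = 0.031). The line difference in 2i against PD was 0.69 without a call (adjusted p = 0.17).

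Itgae, the alpha chain whose known ligand is E-cadherin on epithelial cells, read 6.26, 6.35 and 6.65 in B20 and 6.32, 6.55 and 6.28 in B18 in R2i. It read 6.80 and 6.99 in B20 and 6.68 and 6.70 in B18 in 2i, and 6.01, 6.09 and 6.05 in B20 and 6.20, 6.43 and 6.34 in B18 in PD. The 4 arrays in 2i were above all R2i and all PD arrays. Itgae was higher in 2i than in PD (0.60 ± 0.09, adjusted p = 8.22e-05) and lower in R2i than in 2i (-0.39 ± 0.09, adjusted p = 0.00298). In B18 alone neither was called, at 0.37 (adjusted p = 0.0514) and -0.31 (adjusted p = 0.0946). Itga3, a laminin receptor chain, read 7.01, 6.98 and 6.97 in B20 and 7.35, 7.96 and 7.39 in B18 in R2i, against 6.80 and 6.79 in B20 and 6.78 and 7.02 in B18 in 2i. In PD it read 6.48 to 6.82 in B20 and 7.13 to 7.16 in B18, so that R2i was above both other media within each line. Itga3 was higher in R2i than in 2i (0.43 ± 0.11, adjusted p = 0.00614), a call that ended in B20 alone (0.19, adjusted p = 0.439), and higher in R2i than in PD (0.37 ± 0.09, adjusted p = 0.0116). Itgb5, a partner of the alpha v chain, was lower than in PD in R2i (-0.37 ± 0.07, adjusted p = 0.00176) and in 2i (-0.23 ± 0.08, adjusted p = 0.0479). Itga5, Itgav, Itgb4 and Itgb7 were not called in any of the 3 comparisons. A dimmer Itga5 probe, detected on all 16 arrays, was called lower in R2i than in 2i in limma with each probe fitted on its own (-0.33, adjusted p = 0.021).

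How far R2i and PD differed was itself different between B20 and B18 for 4 of the 10 collagens, and for no laminin or integrin. Col4a1, Col18a1 and Col5a1 were well below PD in the R2i arrays of B18 and close to PD in those of B20. Col9a2 was above PD in B18 and not in B20. Over all genes 2.12% were called for a more positive change in B20 than in B18 and 2.14% for a more negative one, and of 25 members 3 and 1 were. The difference, B20 minus B18, was 1.03 ± 0.20 for Col4a1 (-0.29 in B20, -1.32 in B18, adjusted p = 0.00832). It was 0.68 ± 0.15 for Col18a1 (-0.23 and -0.91, adjusted p = 0.0151), 0.78 ± 0.18 for Col5a1 (0.02 and -0.76, adjusted p = 0.0197) and -1.23 ± 0.20 for Col9a2 (-0.24 and 0.99, adjusted p = 0.00238). A dimmer Col18a1 probe, detected on all 16 arrays, gave 0.39 for this difference in limma without a call (adjusted p = 0.427). The Col5a1 call ended without B18 PD replicate 3 (0.72, adjusted p = 0.0569), without B18 R2i replicate 1 (0.73, adjusted p = 0.0537) or without B18 R2i replicate 3 (0.75, adjusted p = 0.0512). Col4a2 leaned the same way as Col4a1 without a call (0.57 ± 0.28, adjusted p = 0.277).

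**Figure D3:**
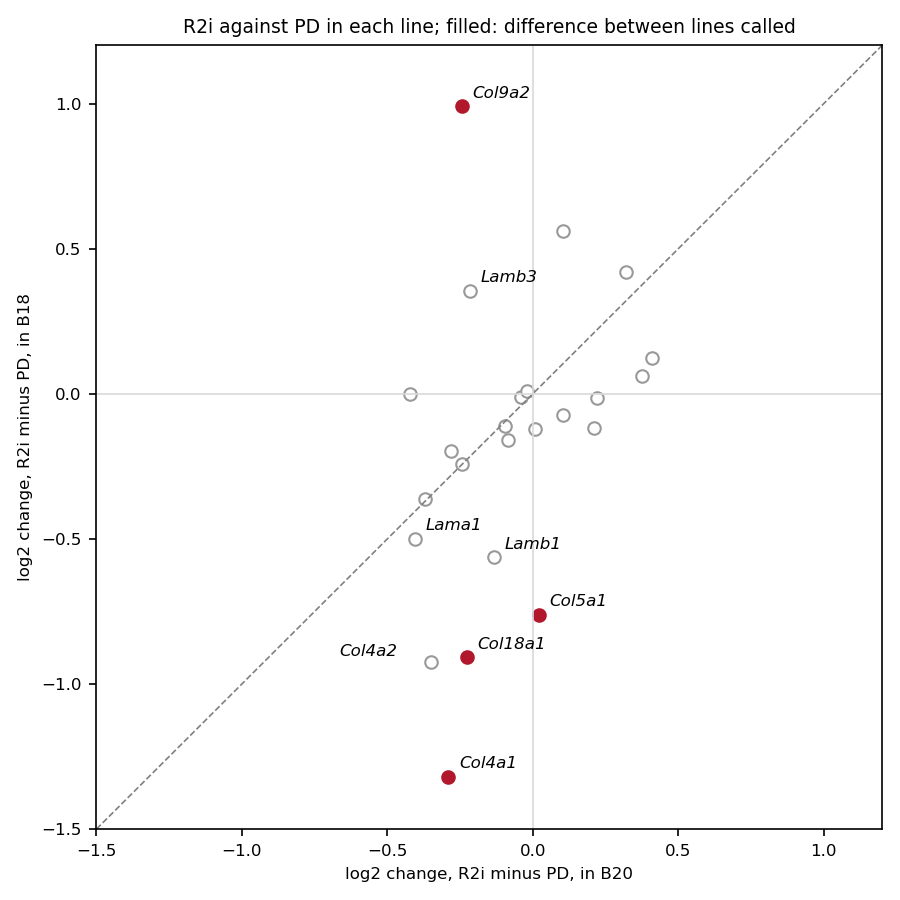
Log2 change in R2i against PD in B20 (horizontal axis) and in B18 (vertical axis) for 24 members; the dashed line marks equal change and filled points had a called difference between the lines. Col4a1, Col18a1 and Col5a1 lie far below the line, with -1.32, -0.91 and -0.76 in B18, and Col9a2 lies far above it.

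In R2i against 2i, 0 members were called for a more positive and 1 for a more negative change in B20, against 0.467% and 0.88% of all genes. In 2i against PD, 0 and 1 were called, against 1.09% and 0.63% of all genes. The gene called in 2i against PD was Lamb3, at -1.18 in B20 and -0.15 in B18, a difference of -1.03 ± 0.25 (adjusted p = 0.0446). Lamb3 was not detected on 2 of 3 B18 PD arrays, and its call did not hold under most single-array omissions, with adjusted p up to 0.124.

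Over the 3 media B20 and B18 differed in 11 members, 4 higher and 7 lower in B20, with 15.7% and 17.3% of all genes called in these directions. Integrins made up 6 of the 7 members called lower in B20, and none of the 9 was called higher. Scaling to a common median, which moved the median of all genes to 0.16 in this contrast, gave 5 higher and 4 lower members. Itga6 was lower in B20 by -0.44 ± 0.10 (adjusted p = 0.0031), Itga3 by -0.39 ± 0.08 (adjusted p = 0.00274) and Itgb7, which pairs with the alpha E chain, by -0.38 ± 0.08 (adjusted p = 0.00224). Itgb7 read 5.86 to 6.15 in B20 and 6.24 to 6.58 in B18 in R2i, which do not overlap, and 5.41 to 5.83 in B20 and 6.14 to 6.45 in B18 in PD, which do not overlap either. Its 2i levels of 5.93 and 6.16 in B20 and 6.09 and 6.14 in B18 did overlap. Among members higher in B20 were Lamb3 (0.70 ± 0.10, adjusted p = 9.99e-05), Col18a1 (0.41 ± 0.06, adjusted p = 0.000253) and Col4a1 (0.37, adjusted p = 0.00433). The dimmer Col18a1 probe gave 0.24 in limma without a call (adjusted p = 0.0817). Col9a2 was lower in B20 (-0.51 ± 0.09, adjusted p = 0.00046). Its R2i arrays in B20 all lay below those in B18, as given above, where the ranges for 2i and PD span both lines.

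The genes whose levels followed Col4a1 most closely over the 16 arrays, after the mean of each line was subtracted, were Dok2 (Pearson r = 0.962), Col4a2 (0.954), Mycl (0.951), Sox7 (0.933) and Ltbp4 (0.931), of 9206 genes. These points share arrays and normalisation and are given as a description. Col18a1 ranked 33 (r = 0.868) and Lama1 129 (r = 0.787) among all genes, and the next members were Lamc1 at rank 838 (r = 0.566) and Itga6 at rank 878 (r = 0.557). At the other end lay Itgae (r = -0.701) and Col17a1 (r = -0.728), the members called higher in 2i than in PD.

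Sox7, a transcription factor of the primitive endoderm lineage, was lower in 2i than in PD by -1.86 ± 0.09 (adjusted p = 3.29e-10) and lower in R2i than in PD by -1.16 ± 0.08 (adjusted p = 2.28e-08). Markers of that lineage are given beside the type IV collagen result because parietal endoderm is known for these genes. Of 16 primitive and parietal endoderm markers 7 were kept in B20 and B18, and Gata4, Sox17 and Pdgfra were not among them. The summed linear level of the 7 was 1579 to 2297 in R2i, 2087 to 2766 in 2i and 1631 to 2679 in PD. In R2i against PD 1 of the 7 was called higher and 2 lower, with 9.24% and 9.57% of all genes. In 2i against PD 2 of the 7 were called higher and 3 lower, with 11.4% and 12.2% of all genes. The median log2 change of the 7 was -0.02 in R2i against PD and 0.15 in 2i against PD, where changes ran from -1.86 to 0.47. Dab2 was among those called lower in 2i (-0.89 ± 0.09, adjusted p = 1.32e-06). It was not detected in 2i and was at least 1.18-fold lower there than in PD. Of 10 feeder fibroblast markers 2, Thy1 and Mmp2, were kept, with sums of 111 to 144 in R2i, 129 to 151 in 2i and 95.3 to 132 in PD. Thy1 was higher in 2i than in PD (0.88 ± 0.11, adjusted p = 1.5e-05). Of the 10 pluripotency markers, 0 were called higher and 4 lower in R2i than in PD, with 9.24% and 9.57% of all genes. In R2i against 2i 0 were called higher and 2 lower, with 14.2% and 13.4% of all genes. The counts were the same in 2i against PD, with 11.4% and 12.2% of all genes. Their summed level was 37962 to 45782 in R2i, 48829 to 50685 in 2i and 51123 to 55038 in PD. Of 10 trophoblast markers 7 were kept, without Cdx2, with sums of 3008 to 3669 in R2i, 2392 to 2853 in 2i and 1970 to 3255 in PD. Of 7 primed epiblast markers 3 were kept, without Fgf5 and T, with sums of 2838 to 4376 in R2i, 2311 to 2447 in 2i and 2338 to 2920 in PD. The part of these cells and states in the results was not tested, and in such samples fewer cells of a type and less RNA per cell cannot be told apart.

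Partners of the members, a list of 65 genes for other matrix proteins, collagen processing and adhesion, had more lower than higher calls against PD. Of 45 kept in B20 and B18, 1 was called higher and 12 lower in R2i than in PD, with 9.24% and 9.57% of all genes, and 1 higher and 13 lower in 2i than in PD, with 11.4% and 12.2% of all genes. R2i against 2i gave 6 higher and 11 lower, with 14.2% and 13.4% of all genes, so the share called higher was near the background. The median log2 change of the partners was -0.12 in R2i against PD, -0.05 in 2i against PD and 0.00 in R2i against 2i. Against PD, R2i had less Mmp14, a membrane-bound matrix protease (-0.88 ± 0.08, adjusted p = 7.74e-07), Pcolce, an enhancer of procollagen processing (-0.73 ± 0.07), and Bcam, a laminin receptor outside the integrin family (-0.46 ± 0.09). In 2i against PD, Hspg2, which encodes perlecan, was lower by -1.0 ± 0.16 (adjusted p = 0.000285) and Fkbp10, a collagen chaperone, by -0.63 ± 0.10, while Fbln1 was higher by 0.53 ± 0.10. In R2i against 2i Hspg2 was higher (0.63 ± 0.16), and Pcolce (-0.76 ± 0.08) and the nidogen gene Nid1 (-0.54 ± 0.10) were lower.

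C17 and B4, measured on the larger array with the line as the only replicate, showed far fewer changes between media. In R2i against PD 0 of 21 members were called in either direction by limma. Over all 11003 genes 0.0364% were called higher and 0.1% lower. An unadjusted p under 0.05 was found for 4 of the 21 members and for 991 of the 11003 genes. In R2i against SB also 0 were called, with 1.01% and 1.15% of all genes. There 7 of the 21 members and 1883 of the 11003 genes had an unadjusted p under 0.05. In PD against SB 1 was called higher and 1 lower, with 2.76% and 2.41% of all genes. The fit has 2 residual degrees of freedom, so these counts do not show that levels were alike.

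**Figure D4:**
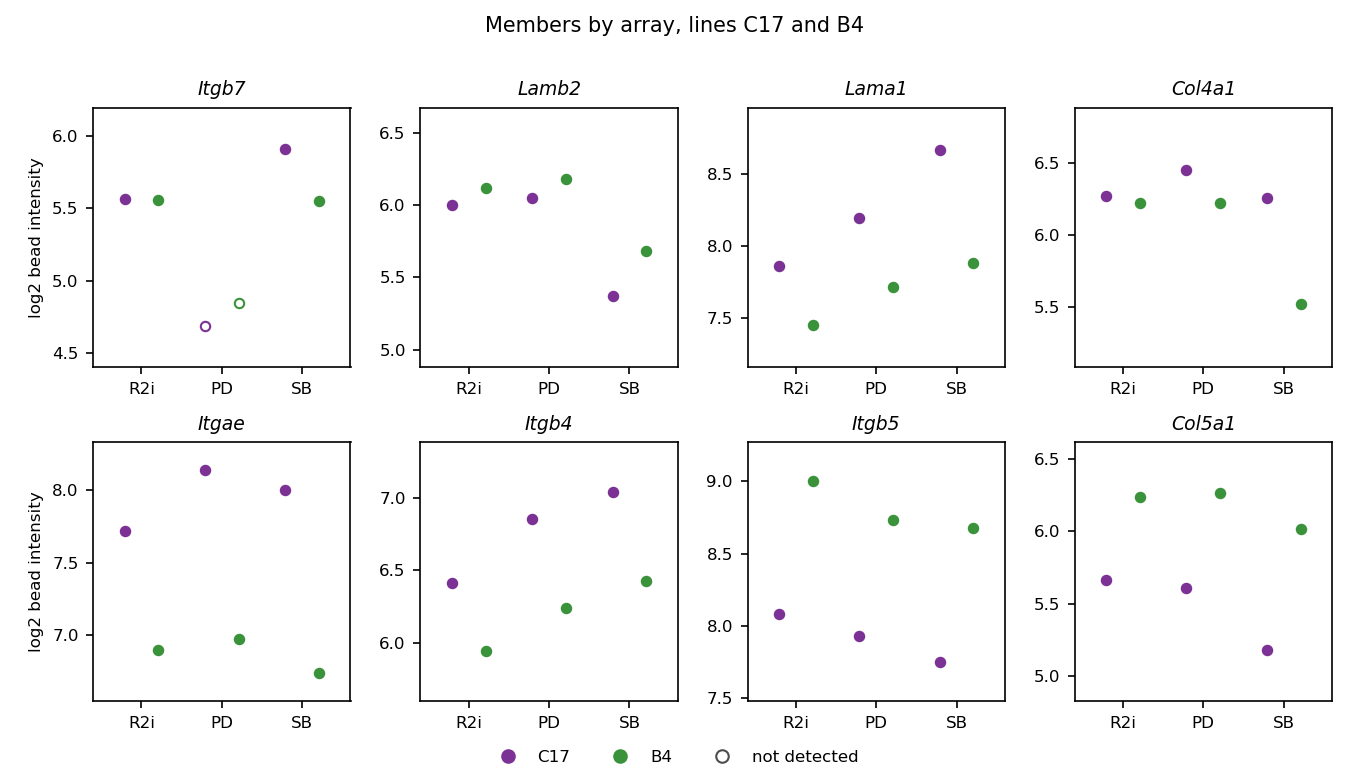
Log2 bead intensity (vertical axes, each with its own range) of 8 members in C17 and B4 by medium, with 1 array per point and open circles where the probe was not detected. Itgb7 is not detected in PD in either line, Lamb2 is lowest in SB, and in every medium Itgae is higher and Itgb5 lower in C17.

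Itgb7 read 5.57 in C17 and 5.56 in B4 in R2i, 4.69 and 4.85 in PD, where it was not detected, and 5.91 and 5.55 in SB. Both PD arrays were below all others. Itgb7 was at least 1.57-fold lower in PD than in SB (fitted -0.96 ± 0.16, adjusted p = 0.00854), and at least 1.40-fold higher in R2i than in PD without a call (0.79 ± 0.16, adjusted p = 0.122). The bound takes each PD array at the dimmest detected probe where Itgb7 itself lay lower. Lamb2, the beta chain of laminins at synapses and in the kidney filter, read 6.00 in C17 and 6.12 in B4 in R2i, 6.05 and 6.18 in PD and 5.37 and 5.69 in SB. The SB arrays were lowest, and PD against SB gave 0.59 ± 0.14 (adjusted p = 0.0425). The Lamb2 call ended without any 1 of the 4 PD and SB arrays (adjusted p of 0.0514 to 0.426), and the Itgb7 call without the C17 PD (adjusted p = 0.129) or C17 SB (adjusted p = 0.0538) array.

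Of the members that changed in the other lines, Col4a1 read 6.27 in C17 and 6.22 in B4 in R2i, 6.45 and 6.22 in PD and 6.25 and 5.52 in SB. R2i against PD gave -0.09 ± 0.18 (adjusted p = 0.922), and PD against SB 0.45 ± 0.18 (adjusted p = 0.212). Col4a2 had no kept probe here, and 2i was not among the media of these lines. Lama1 read 7.86 in C17 and 7.45 in B4 in R2i, 8.19 and 7.72 in PD and 8.67 and 7.88 in SB, with the same order of media in both lines. R2i against PD was -0.30 ± 0.15 (adjusted p = 0.608), and R2i against SB -0.62 ± 0.15 (adjusted p = 0.0692), which passed under median scaling (-0.69, adjusted p = 0.0363). Lamc1 read 9.17 in C17 and 9.69 in B4 in R2i, 9.41 and 9.52 in PD and 9.16 and 9.32 in SB. Itga6 read 6.11 in C17 and 6.28 in B4 in R2i, 5.95 and 5.95 in PD and 6.41 and 6.27 in SB. Itgb1 read 5.75 in C17 and 5.0 in B4 in R2i, 4.74 and 5.54 in PD and 5.46 and 5.42 in SB, with no detection in the B4 R2i and C17 PD arrays. None of these 3 was called in a comparison of media.

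C17 and B4 differed from each other in 10 of 21 members over the 3 media, 3 higher and 7 lower in C17, with 15% and 16.6% of all genes called. Itgae was the member with the largest difference, at 7.72, 8.14 and 8.0 in C17 and 6.90, 6.97 and 6.73 in B4 in R2i, PD and SB (1.09 ± 0.13, adjusted p = 0.000427). Itgb5 read 8.08, 7.93 and 7.75 in C17 and 9.0, 8.73 and 8.67 in B4 in the same order (-0.88 ± 0.11, adjusted p = 0.000655). Every C17 array lay above every B4 array for Itgae and below every B4 array for Itgb5. With 1 array per line, overlap within a medium cannot be judged. In R2i all labels name the line alike. Col5a1 read 5.66, 5.61 and 5.18 in C17 and 6.24, 6.26 and 6.02 in B4 (-0.69 ± 0.12, adjusted p = 0.00257). Lama5, the alpha chain of the laminin most used to coat dishes for stem cells, read 6.27, 6.61 and 6.66 in C17 and 7.10, 7.36 and 7.09 in B4 (-0.67 ± 0.12, adjusted p = 0.00374). Lama3, the alpha chain of the epithelial laminin that holds Lamb3, read 6.50, 6.55 and 5.96 in C17 and 7.07, 6.92 and 6.84 in B4 (-0.61 ± 0.13, adjusted p = 0.00736). Col20a1 was detected in B4 in R2i (5.43) and PD (5.71) and on no C17 array. It passed the detection filter through these B4 arrays alone, so its call as lower in C17 is not independent of the filter. That call, counted among the 7 lower ones (-0.71 ± 0.19, adjusted p = 0.0195), ended on leaving out an R2i or a PD array of either line. The other called members were Itgb4 and Lama1, higher in C17 by 0.57 and 0.56, and Col18a1 and Itga3, lower by -0.56 and -0.49. BALB/c and C57BL/6 differ in sequence, and whether that changes probe binding was not tested.

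Partners kept in C17 and B4 numbered 48. In R2i against PD 0 were called by limma, with 0.0364% of all genes called higher and 0.1% lower. An unadjusted p under 0.05 was found for 5 of the 48 partners and for 991 of all 11003 genes. In R2i against SB 1 was called higher and 1 lower, with 1.01% and 1.15% of all genes, and in PD against SB 3 higher and 1 lower, with 2.76% and 2.41%. Sparc, a collagen-binding matrix protein, was higher in R2i than in SB (0.81 ± 0.15, adjusted p = 0.0303) and in PD than in SB (1.07 ± 0.15, adjusted p = 0.00383). Zyx, which encodes the focal adhesion protein zyxin, was lower in R2i than in SB (-0.95 ± 0.15, adjusted p = 0.0124) and in PD than in SB (-1.05 ± 0.15, adjusted p = 0.00336). Between C17 and B4 10 partners were called higher and 10 lower, with 15% and 16.6% of all genes. Of the endoderm markers 4 were kept here, with sums of 1562 to 1652 in R2i, 1831 to 1904 in PD and 896 to 1045 in SB. Sparc, given above as a partner, is 1 of these 4 and was the only 1 called in PD against SB. The log2 changes of the 4 in PD against SB ran from 0.02 to 1.07, the value of Sparc, with a median of 0.14.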

How the data were processed

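RNA of 22 samples was labelled and hybridised to Illumina bead arrays, 16 for B20 and B18 and 6 for C17 and B4. The deposited intensity values are mean bead signals per probe, not normalised, and come with a deposited detection p-value per probe and array, per the file headers. GenomeStudio and limma are named in the submitters' processing notes without versions. The log2 values of the authors' deposited tables served as an alternative. Another 22 columns of the deposited files were not assigned to a sample here and were not used.

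Each platform was corrected for background and quantile normalised with neqc in limma 3.58.1 (R 4.3.3) with an offset of 16. Kept probes had a detection p under 0.01 on 2 or more arrays, and the probe with the highest mean stood for its gene. Symbols were updated through RefSeq names; 1224 and 14651 probes found no match and kept the symbol of the file. B20 and B18 were fitted as 6 group means (10 residual degrees of freedom), C17 and B4 as medium plus line (2), with lmFit and eBayes and Benjamini-Hochberg adjustment over all genes. The script was tested on simulated data. In each comparison the text names up to 6 called members with the largest change. The markers Col4a1, Col4a2, Lama1, Lamc1, Itga6 and Itgb1 are given by their levels in each medium where kept, and their differences only in part. Others are named to complete a family or a count, after their values were seen. The members and lists were chosen with earlier results of these data known. Replicates are not stated to be separate cultures, so p-values measure the spread between arrays, and the number of arrays limits the precision. Alternatives were other scaling, background, offset, filter and probe choices, the deposited log2 values, each line alone, a replicate block and leaving out each array. Of the kept members, 1 is counted but not reported here.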

Additional observations from a re-analysis of the deposited data

Results flagged for a closer look

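The change in R2i against PD differed between B20 and B18 by an interaction test in limma for 4 collagens. The difference, B20 minus B18, was 1.03 for Col4a1, 0.68 for Col18a1, 0.78 for Col5a1 and -1.23 for Col9a2. A dimmer Col18a1 probe gave 0.39 and was not called. For Lamb3 the change in 2i against PD differed by -1.03. B20 and B18 were on separate chips, and the part of the chip in these differences was not tested.

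In C17 and B4 some members moved in opposite directions, with 1 array per line and medium, and the difference was not tested. C17 minus B4, it was 1.56 for Itgb1 and -0.41 for Lamc1 in R2i against PD. It was 0.72 for Itgb1 and -0.31 for Itga6 in R2i against SB, and -0.84 for Itgb1 in PD against SB. Itgb1 was not detected on the B4 R2i and C17 PD arrays.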

How the results depend on the processing

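Of the single-gene values that were called, 802 alternatives kept direction and call, 68 lost the call and 3 reversed, while of those not called 904 stayed so and 24 became called. The reversals were in B20 alone, with Col5a1 at 0.0218 and Col9a2 at -0.24 in R2i against PD and Lamc1 at 0.0049 in 2i against PD. The number of called members in R2i against PD fell to 3 in B20 alone, against 11 in both lines, and in R2i against 2i to 5 in B18 alone, against 8. The number for the line difference in 2i against PD was 1, and it was 3 with median scaling, 2 with an offset of 50, and 0 with no detection filter or with every probe on its own. In PD against SB it was 2, and 1 with median scaling, an offset of 50 or detection on every array, and 0 with no background correction or no detection filter. In R2i against SB it was 0, and 2 with median scaling and 1 with an offset of 50.

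Replicate numbers did not pair the arrays: residuals of same-numbered arrays correlated at -0.118 to 0.129. With a replicate block, B20 against B18 is taken at replicate 1 of each line and not over all arrays, so it is not the same contrast. It had 3 called members (3 higher and 0 lower), against 11 (4 higher and 7 lower) over all arrays. For the line difference in R2i against 2i the block gave 0 called members, against 1. Leaving out 1 array gave 10 to 13 called members in R2i against PD, 6 to 9 in R2i against 2i, 7 to 10 in 2i against PD and 8 to 12 in B20 against B18. The line differences gave 3 to 6 in R2i against PD, 0 to 2 in R2i against 2i and 0 to 5 in 2i against PD. In C17 and B4 it gave 0 to 1 in R2i against PD, 0 to 1 in R2i against SB, 0 to 2 in PD against SB and 8 to 10 in C17 against B4. The cause of these changes was not tested. Members detected on few arrays, such as Col25a1, Lamb1 and Col20a1, lie near background, where changes are compressed.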
